A study of Rattus norvegicus with 200 samples.

Results

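The genes described here encode the nuclear subunits of mitochondrial complex I, NADH:ubiquinone oxidoreductase. They were taken as the rows of the count table whose symbol begins with Ndufa, Ndufb, Ndufc, Ndufs or Ndufv followed directly by a number, and whose mean over all 200 libraries was at least 1 CPM, the count scaled to a library total of 1e6. This gave 35 of the 20361 genes in the table, and all 35 passed the filter on low counts that left 14393 genes for testing. The rule matched 36 symbols before the CPM limit. Ndufa10l1 fell outside it at 0.00311 CPM, and Ndufa4l2 was the subunit nearest to the limit on the inside, at 1.59 CPM. The rule uses no difference between groups, though the subunits were chosen with earlier results of these data known. The rows that RefSeq now names Ndufs6 and Ndufa13 carry LOC symbols in the table, and Ndufab1 has no number after its letters, so these are not among the 35.

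Complex I is the entry point for electrons from NADH into the respiratory chain. Its matrix arm passes electrons from NADH through a flavin and a chain of iron-sulphur clusters to ubiquinone, and its membrane arm moves protons across the inner mitochondrial membrane. A conserved set of core subunits carries out catalysis, part of it encoded by mitochondrial DNA, and accessory subunits surround this core and are needed for assembly and stability. In microglia, macrophages that live in the brain, the balance between oxidative phosphorylation and glycolysis is known to shift with activation state.

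The libraries are bulk RNA-seq of RNA labelled as coming from brain microglia of adult male Wistar rats, all wild type. The rats received a high-fat diet (HFD) or chow, with food offered ad libitum, in the light phase or in the dark phase, and were sampled at 6 Zeitgeber times (ZT2, ZT6, ZT10, ZT14, ZT18 and ZT22, in hours after lights on). The groups were HFD light-feeding (33 libraries), HFD dark-feeding (33), HFD ad libitum (34), chow light-feeding (33), chow dark-feeding (33) and chow ad libitum (34), with 5 to 7 libraries for each group and time. The design asks how diet and feeding schedule change the daily transcription programme of these cells.

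Total counts ran from 3.78 M to 11.6 M per library (M, 1e6 counts), with a median of 7.55 M. Nothing in the labels ties a library to its own rat, and p-values therefore rest on the spread among libraries, which may be technical. Of the 18 homeostatic microglia markers tested the median level was 60.3 CPM, whereas 12 oligodendrocyte markers had a median of 489 CPM, 15 neuron markers 129 CPM and 14 astrocyte markers 27.2 CPM, and none of these markers was at 0. The libraries thus hold RNA of other brain cells, and in such bulk samples fewer cells of a type and less RNA per cell cannot be told apart. Libraries also differed in how gene levels tilt with transcript length, as implied by the ratio of the authors' counts and FPKM. This was measured as the slope of log2 CPM deviations per doubling of that length. In 9 libraries this length slope lay more than 3 scaled median absolute deviations below the median, at -0.205 to -0.12. These were 3 libraries of chow dark-feeding and 2 of chow ad libitum at ZT14, 2 of chow light-feeding at ZT2, 1 of chow light-feeding at ZT18 and 1 of HFD ad libitum at ZT6. The titles of the HFD and chow libraries run in 2 separate number series, so diet and anything shared within a series cannot be told apart.

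On the FPKM scale deposited by the authors, 2 core and 2 membrane subunits stood highest. FPKM are fragments scaled by library size and by the transcript length the authors used. That length may be shorter than the full transcript. Mean FPKM over the 200 libraries was highest for Ndufs7, an iron-sulphur core subunit next to the quinone site, at 122 ± 17.1 (SD). It was followed by the membrane subunit Ndufc2 at 119 ± 18.7, the membrane subunit Ndufb8 at 81.8 ± 17.2 and Ndufv1, the core subunit that binds NADH and carries the flavin, at 81.2 ± 8.1. The means of Ndufs7 and Ndufc2 lay within 1 SD of each other, as did those of Ndufb8 and Ndufv1, while a gap of more than 1 SD lay between these pairs. These SDs are over libraries of all groups and times, and differences between genes within libraries were not tested. The lowest 4 levels were those of Ndufb3 (16.1 ± 4.93 FPKM), Ndufa2 (15.6 ± 6.0 FPKM), Ndufc1 (10.9 ± 3.49 FPKM) and Ndufa4l2 (2.4 ± 0.784 FPKM). Of these only Ndufa4l2 stood apart from its neighbour by more than the larger of the 2 SDs. Ndufa4l2 is a paralogue of Ndufa4 known as a hypoxia-induced gene. Median FPKM was 46.1 for the 7 core subunits, 29.5 for the 8 accessory subunits of the matrix arm, 38.9 for the 8 membrane arm accessory subunits of the A, C and S series, and 40.7 for the 10 of the B series. The subunits encoded by mitochondrial DNA were not analysed here.

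Start-site windows of 250 bases before to 50 bases after the annotated start were found in RefSeq (build GRCr8) for 32 of the 35 subunits and searched on both strands for motifs of factors known to act on respiratory chain genes. The YY1 motif AAGATGGC was present in 8 of 32 windows (25%), against 5.2% of the 11217 tested genes with a window and 3.44% of all 27457 windows. All 8 matches lay on the gene's own strand within 50 bases of the start, whereas 55.7% of the tested genes that hold the motif have it placed so. The NRF1 motif GCGCNTGCG was present in 7 of 32 windows (21.9%), against 12.4% of tested genes and 6.34% of all windows. The GABPA motif CCGGAAGT was present in 2 of 32 (6.25%), those of Ndufb7 and Ndufs1, against 7.61% and 4.01%, and the ESRRA motif TCAAGGTCA in none, against 0.259% and 0.412%. The shares with any of the 4 motifs were 53.1% of the subunits, 22.7% of tested genes and 12.9% of all windows. A match describes letters only, and a missing match says only that these letters are not in this window. The windows of 4 subunits that the results below turn on are shown, from Ndufs7 with a YY1 match, Ndufa11 and Ndufs5 with NRF1 matches and Ndufs1 with a GABPA match, each on the gene's strand with the motif in capitals. The NRF1 matches of Ndufa11 are 4 overlapping ones on both strands.
Ndufs7, chr7:10110449-10110748, minus strand: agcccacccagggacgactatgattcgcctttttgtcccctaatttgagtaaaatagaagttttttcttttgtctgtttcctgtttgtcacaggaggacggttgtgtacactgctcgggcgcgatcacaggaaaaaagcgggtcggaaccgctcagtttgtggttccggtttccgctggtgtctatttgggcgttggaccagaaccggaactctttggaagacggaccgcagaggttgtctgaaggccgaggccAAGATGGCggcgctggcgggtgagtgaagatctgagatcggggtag
Ndufa11, chr9:1637364-1637663, plus strand: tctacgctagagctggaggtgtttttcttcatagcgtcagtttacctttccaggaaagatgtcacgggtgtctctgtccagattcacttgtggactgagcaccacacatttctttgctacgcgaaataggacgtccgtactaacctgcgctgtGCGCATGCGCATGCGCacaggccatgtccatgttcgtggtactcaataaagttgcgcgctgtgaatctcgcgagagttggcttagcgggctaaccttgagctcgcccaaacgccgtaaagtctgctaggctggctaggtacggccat
Ndufs5, chr5:141264353-141264652, minus strand: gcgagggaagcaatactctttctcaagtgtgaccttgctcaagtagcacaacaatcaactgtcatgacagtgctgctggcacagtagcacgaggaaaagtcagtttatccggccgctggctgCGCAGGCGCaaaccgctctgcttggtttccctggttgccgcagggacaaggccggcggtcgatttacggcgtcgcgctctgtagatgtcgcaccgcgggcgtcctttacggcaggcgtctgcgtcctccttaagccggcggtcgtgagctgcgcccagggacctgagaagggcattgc
Ndufs1, chr9:72073556-72073855, minus strand: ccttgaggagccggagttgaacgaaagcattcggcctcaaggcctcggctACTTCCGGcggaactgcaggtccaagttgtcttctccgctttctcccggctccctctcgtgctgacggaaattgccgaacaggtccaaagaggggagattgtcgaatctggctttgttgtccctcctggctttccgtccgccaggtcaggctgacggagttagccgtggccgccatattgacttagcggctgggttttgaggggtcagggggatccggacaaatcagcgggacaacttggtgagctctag

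Complex I subunits were lower on HFD than on chow under both restricted schedules, and fewer of them under ad libitum feeding. The summed level of the 35 subunits averaged 754 ± 51.7 CPM in HFD light-feeding and 840 ± 84.4 CPM in chow light-feeding (SD, n = 33 each). It averaged 727 ± 40.4 CPM in HFD dark-feeding and 844 ± 132 CPM in chow dark-feeding (SD, n = 33 each), and 761 ± 61.4 CPM in HFD ad libitum and 823 ± 95.4 CPM in chow ad libitum (SD, n = 34 each). Libraries of the 2 diets overlapped under every schedule. The 4 highest sums, all at ZT14, were those of 3 chow dark-feeding libraries (1270, 1184 and 1158 CPM) and 1 chow ad libitum library (1171 CPM), each with an outlying length slope. The sum over the 191 other libraries ran from 658 to 1007 CPM, and over the 9 with outlying slopes from 953 to 1270 CPM.

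**Figure D1:**
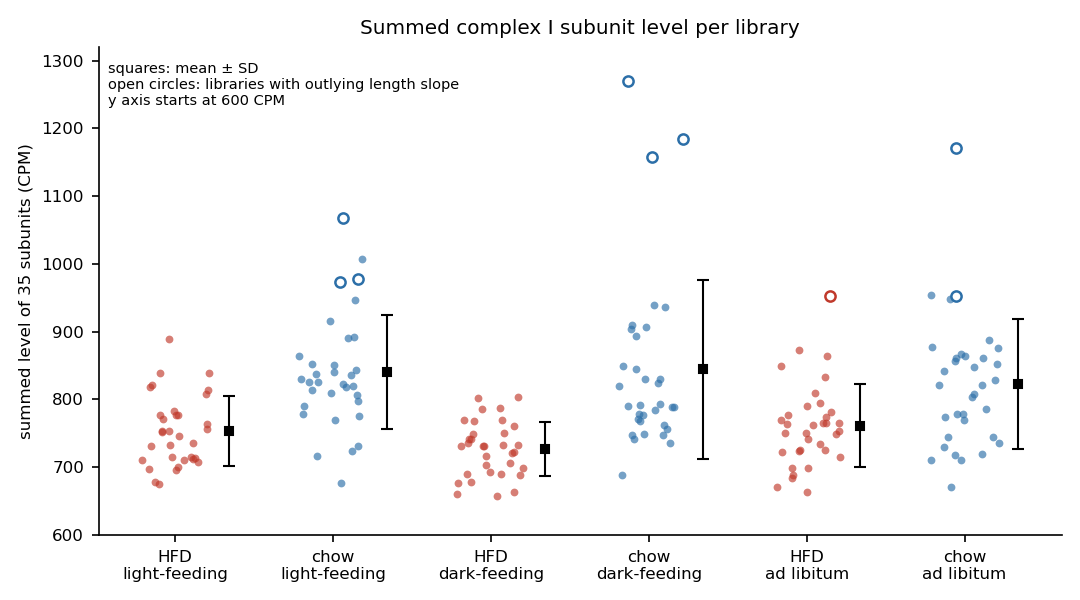
Summed CPM of the 35 complex I subunits in each of the 200 libraries (points), with the mean and SD of each group (squares and bars); HFD groups in red, chow groups in blue, open circles for the 9 libraries with an outlying length slope. HFD means lie at 727 to 761 CPM and chow means at 823 to 844 CPM, and the points of the 2 diets overlap.

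Each subunit was tested with edgeR's quasi-likelihood test over all 14393 genes, with Zeitgeber time in the model and Benjamini-Hochberg adjustment, and is said to have changed where the adjusted p was under 0.05. Under light-feeding 28 of 35 subunits were lower on HFD (80%) and 1 was higher, against 25.1% of all genes lower and 25.2% higher. Under dark-feeding 29 of 35 were lower (82.9%) and none higher, against 23.1% of all genes lower and 22.8% higher. Under ad libitum feeding 11 of 35 were lower (31.4%) and none higher, against 10.1% and 9.96% of all genes. The median log2 fold change of the 35 was -0.27, -0.31 and -0.12 under light-feeding, dark-feeding and ad libitum feeding, against -0.01 over all genes in each. In these comparisons 26 subunits were lower under both restricted schedules, 9 under all 3 schedules (Ndufa11, Ndufa12, Ndufb8, Ndufb10, Ndufb11, Ndufs3, Ndufs7, Ndufs8 and Ndufv1) and 4 under none (Ndufa4l2, Ndufb5, Ndufc2 and Ndufs1). The matching overlaps over all genes are not given here, so these counts have no background to be set against. On the authors' FPKM scale the split over all genes shifted toward lower calls, with 2742 genes higher and 4574 lower under light-feeding, 2354 and 4391 under dark-feeding and 1112 and 1942 ad libitum, against 3621 and 3614, 3279 and 3324, and 1434 and 1454 in the count test.

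**Figure D2:**
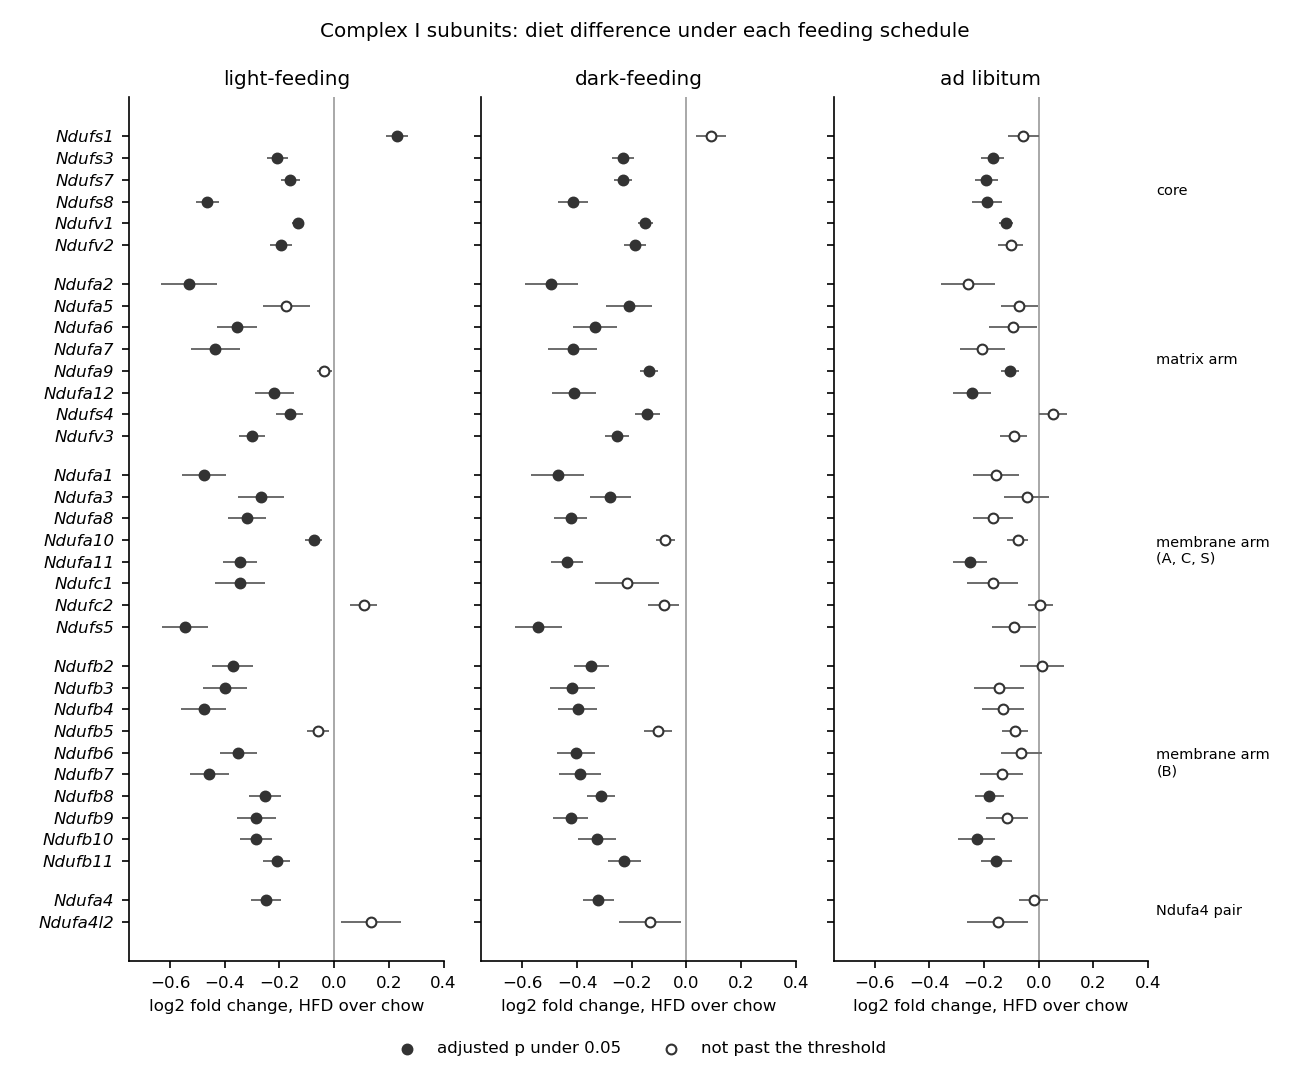
Log2 fold change of HFD over chow for 34 of the 35 subunits under light-feeding, dark-feeding and ad libitum feeding, by place in the complex; bars are standard errors, filled points passed an adjusted p of 0.05. Nearly all points lie left of 0 under the restricted schedules, and Ndufs1 lies right of 0 under light-feeding at 0.23.

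Among the 7 nuclear core subunits, which carry the flavin and the iron-sulphur clusters or line the quinone site, 5 were lower and 1 higher on HFD under light-feeding, 6 were lower under dark-feeding and 5 under ad libitum feeding. Ndufs8, a core subunit with iron-sulphur clusters, had a lowest, median and highest level of 8.44, 10.8 and 13.9 CPM in HFD light-feeding, against 12.2, 15.6 and 18.8 CPM in chow light-feeding. Of the 33 HFD light-feeding libraries 27 lay below the lowest chow library for this gene. Its log2 fold change was -0.46 (SE 0.04, adjusted p = 2.02e-13) under light-feeding, -0.41 (SE 0.05, adjusted p = 2.68e-08) under dark-feeding and -0.19 (SE 0.06, adjusted p = 0.0124) under ad libitum feeding.

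Ndufv1, which binds NADH, showed a small difference of nearly the same size under each schedule. Its levels were 79.5, 92.8 and 104 CPM (lowest, median, highest) in HFD light-feeding and 89.1, 103 and 121 CPM in chow light-feeding. The log2 fold changes were -0.13 (SE 0.02) under light-feeding, -0.15 (SE 0.03) under dark-feeding and -0.12 (SE 0.03) under ad libitum feeding, and all passed. Ndufs7 fell by 0.16 (SE 0.04), 0.23 (SE 0.03) and 0.19 (SE 0.04) on the log2 scale. In dark-feeding it stood at 42.8, 54.3 and 62.9 CPM on HFD, against 54.3, 61.0 and 81.5 CPM on chow, and 18 of 33 HFD libraries lay below the lowest chow library. Ndufs3, a core subunit without a cofactor, fell by 0.21, 0.23 and 0.17 on the log2 scale (SE 0.04 each). Ndufv2, a core subunit with an iron-sulphur cluster, fell by 0.20 and 0.19 (SE 0.04 each) under light-feeding and dark-feeding, and was at -0.10 (SE 0.05, adjusted p = 0.0957) under ad libitum feeding.

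Ndufs1, the largest core subunit of the matrix arm, went against the others. Its levels were 37.7, 48.5 and 73.6 CPM in HFD light-feeding, against 36.7, 42.7 and 51.8 CPM in chow light-feeding, and 2 of 33 HFD libraries lay below the chow median. It rose by 0.23 on the log2 scale (SE 0.04, adjusted p = 4.49e-06) under light-feeding. Under dark-feeding it was at 0.09 (SE 0.05, adjusted p = 0.166) and under ad libitum feeding at -0.06 (SE 0.06, adjusted p = 0.513). The difference in diet response between light-feeding and ad libitum feeding was 0.28 (SE 0.07, adjusted p = 0.00465), and without ZT2 it was 0.17 and did not pass.

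Of the 8 accessory subunits of the matrix arm 6 were lower on HFD under light-feeding, 8 under dark-feeding and 2 under ad libitum feeding. Ndufa2, a small subunit with a thioredoxin-like fold, had 1.79, 3.64 and 5.58 CPM in HFD light-feeding, against 1.71, 5.22 and 8.55 CPM in chow light-feeding. In dark-feeding it had 1.74, 3.56 and 5.45 CPM on HFD, against 3.0, 4.72 and 12.3 CPM on chow. The ranges overlapped, yet 32 of 33 HFD libraries in light-feeding and 31 of 33 in dark-feeding lay below the chow median. It fell by 0.53 (SE 0.10) and 0.49 (SE 0.10) on the log2 scale under these schedules, and by 0.28 under dark-feeding without ZT14. Ndufa12, a paralogue of the assembly factor Ndufaf2, fell by 0.25 (SE 0.07, adjusted p = 0.00842) under ad libitum feeding, where it averaged 13.0 ± 2.36 CPM on HFD and 15.4 ± 3.63 CPM on chow (SD, n = 34 each). Ndufs4, a subunit near the NADH site whose loss causes a Leigh-like disease in mice, was at 0.05 (SE 0.05, adjusted p = 0.485) under ad libitum feeding and had the highest log2 fold change of the 35 there.

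Among the 8 membrane arm accessory subunits of the A, C and S series 7 were lower under light-feeding, 5 under dark-feeding and 1 under ad libitum feeding. Ndufs5, a small subunit on the intermembrane space side of the membrane arm, had the largest difference of the 35 under both restricted schedules. Its levels were 4.39, 6.7 and 9.44 CPM in HFD light-feeding, against 5.47, 10.0 and 21.4 CPM in chow light-feeding. They were 4.02, 6.62 and 9.5 CPM in HFD dark-feeding, against 6.25, 9.18 and 23.0 CPM in chow dark-feeding. All 33 HFD light-feeding libraries lay below the chow median, and 31 of 33 did in dark-feeding. The fall on the log2 scale was 0.55 (SE 0.08, adjusted p = 2.53e-07) and 0.54 (SE 0.09, adjusted p = 1.22e-06). Without ZT14 the fall under dark-feeding was 0.34 (SE 0.06). Under ad libitum feeding Ndufs5 was at -0.09 (SE 0.08) and did not pass.

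Ndufa1, a small membrane subunit, fell by 0.48 (SE 0.08) under light-feeding and 0.47 (SE 0.10) under dark-feeding, where the fall was 0.28 without ZT14. Ndufa11, a membrane subunit at the contact with complex III, was the only one of this series to change under ad libitum feeding, with 7.32, 12.5 and 18.0 CPM on HFD, against 9.8, 14.1 and 25.0 CPM on chow, and a fall of 0.25 (SE 0.06, adjusted p = 0.00276). Ndufa8, on the intermembrane space side, fell by 0.42 (SE 0.06) under dark-feeding. Ndufc2 was at 0.11 (SE 0.05, adjusted p = 0.0613) under light-feeding and 0.01 (SE 0.05) under ad libitum feeding. The subunit second highest in FPKM thus did not change with diet by this test.

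Of the 10 membrane arm subunits of the B series 9 were lower on HFD under light-feeding, 9 under dark-feeding and 3 under ad libitum feeding. Ndufb4 had 6.14, 8.82 and 12.4 CPM in HFD light-feeding and 6.63, 12.3 and 21.8 CPM in chow light-feeding, and fell by 0.48 (SE 0.08). Ndufb7, on the intermembrane space side, had 4.67, 7.53 and 11.2 CPM in HFD light-feeding and 7.15, 10.6 and 15.7 CPM in chow light-feeding, and fell by 0.46 (SE 0.07). The ranges overlapped for both genes, with 12 chow libraries above the highest HFD library for Ndufb7. Ndufb9 fell by 0.42 (SE 0.06) under dark-feeding, with 17 of 33 HFD libraries below the lowest chow library. Under ad libitum feeding Ndufb10, Ndufb8 and Ndufb11 changed, with falls of 0.23 (SE 0.07), 0.18 (SE 0.05) and 0.16. Ndufb2 was at 0.01 (SE 0.08) there. Ndufa4, now counted with cytochrome c oxidase, fell by 0.25 (SE 0.05) and 0.32 (SE 0.06) under light-feeding and dark-feeding, while Ndufa4l2 was at 0.14 (SE 0.11, adjusted p = 0.309) and -0.13 (SE 0.11, adjusted p = 0.342).

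The size of the diet difference followed the implied length of the transcripts. The implied length comes from the ratio of the authors' counts and FPKM. It is the length by which those FPKM were scaled, and may be shorter than the full transcript. Its median was 405 bases over the 35 subunits, against 2369 bases over 14376 tested genes. Among the subunits it ranged from 153 bases for Ndufa1 to 2200 bases for Ndufs1. Across subunits, which are not independent replicates, log2 fold change and log2 length had a Pearson r of 0.67 under light-feeding, 0.73 under dark-feeding and 0.22 under ad libitum feeding. Over the 14376 genes these r values were 0.29, 0.38 and 0.31. The 21 subunits under 500 bases had a median log2 fold change of -0.35, -0.40 and -0.14 under light-feeding, dark-feeding and ad libitum feeding, and the 14 longer ones -0.15, -0.15 and -0.10.

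Length slopes differed with diet in the same way. They averaged 0.0259 ± 0.0283 in HFD light-feeding and -0.0285 ± 0.0474 in chow light-feeding, 0.0332 ± 0.0257 in HFD dark-feeding and -0.0344 ± 0.0586 in chow dark-feeding, and 0.0209 ± 0.041 in HFD ad libitum and -0.0172 ± 0.052 in chow ad libitum (SD, n = 33 or 34). Across the 200 libraries, after removal of group and time means, the mean standardised level of the subunits and the length slope had r = -0.79 (rho = -0.72, and r = -0.76 without the 2 libraries farthest from the median slope). Both come from the same counts of the same libraries, and the 35 subunits are among the genes the slope is computed over. With each library's length curve entered as an offset, the counts were 12 lower and 3 higher under light-feeding, 14 lower and 1 higher under dark-feeding and 1 lower and 1 higher under ad libitum feeding, with median log2 fold changes of -0.09, -0.09 and -0.04. Over all genes 2849 were then lower and 3828 higher under light-feeding, 2469 and 3199 under dark-feeding, and 968 and 1193 under ad libitum feeding. Ndufs5 was then at -0.30 (SE 0.06) and -0.28 (SE 0.06) under light-feeding and dark-feeding, Ndufs8 at -0.31 (SE 0.04) and -0.23 (SE 0.04), and Ndufv1 at -0.06 (SE 0.02), -0.07 (SE 0.02) and -0.07 (SE 0.02) under the 3 schedules, and all of these passed. Ndufs1 stayed higher under light-feeding at 0.25 (SE 0.04), joined by Ndufc2 at 0.33 (SE 0.05) and Ndufa4l2. Without the 9 libraries of outlying slope and no offsets, 27, 26 and 9 subunits were lower under light-feeding, dark-feeding and ad libitum feeding, and 2, 0 and 0 higher, against 50.5%, 42.9% and 15.4% of all genes changed.

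**Figure D3:**
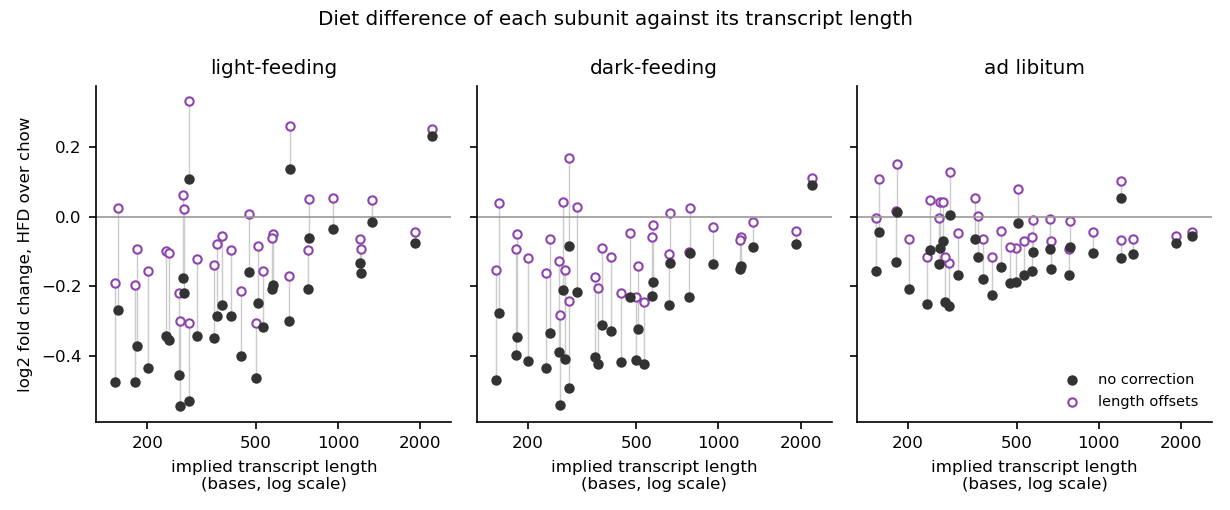
Log2 fold change of HFD over chow against implied transcript length (log axis) for the 35 subunits under each schedule, without correction (filled) and with each library's length curve as an offset (open, joined by a line). Transcripts of shorter implied length lie lower under the restricted schedules, and with offsets the medians are -0.09, -0.09 and -0.04.

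**Figure D4:**
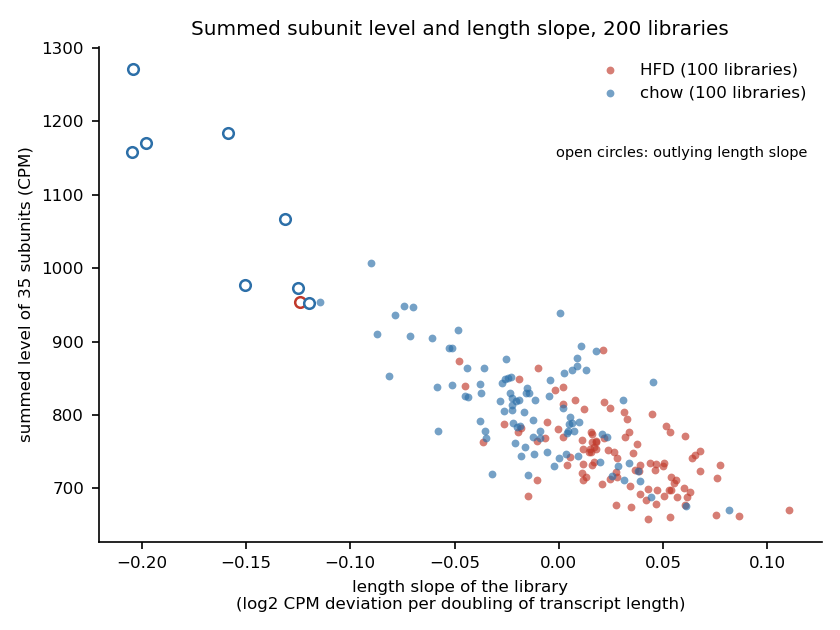
Summed CPM of the 35 subunits against the length slope of each of the 200 libraries, HFD in red and chow in blue, with open circles for the 9 outlying slopes. The sum is higher where the slope is lower, and chow libraries reach further to the left.

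Markers of other cells moved with diet as well. Summed astrocyte markers stood at 1656 ± 136 CPM in HFD light-feeding and 1762 ± 194 CPM in chow light-feeding, oligodendrocyte markers at 17472 ± 2575 and 15107 ± 2907 CPM, neuron markers at 3848 ± 233 and 3763 ± 225 CPM, and the microglia markers themselves at 2031 ± 339 and 2483 ± 565 CPM (SD, n = 33 each). Under light-feeding 13 of 14 astrocyte markers were lower on HFD and 1 higher, 8 of 12 oligodendrocyte markers were higher and none lower, 6 of 15 neuron markers were lower and 2 higher, and 10 of 18 microglia markers were lower and none higher. In dark-feeding the counts were 13 lower astrocyte, 8 higher oligodendrocyte, 7 lower and 1 higher neuron and 11 lower microglia markers. In ad libitum feeding 1 astrocyte marker and 3 oligodendrocyte markers were higher, 2 neuron markers were lower and 1 higher, and 8 microglia markers were lower. Of 10 endothelial markers 9, 7 and 1 were lower on HFD under light-feeding, dark-feeding and ad libitum feeding, of 6 mural cell markers 6, 6 and 1, and of 6 erythrocyte markers 3, 6 and 5. Of 13 T and NK cell markers 2 were higher, 0 changed and 1 was lower. Across the 200 libraries, with group and time means removed, the subunits' mean had r = 0.50 with the neuron score, 0.35 with the astrocyte score and -0.15 with the oligodendrocyte score. For the erythrocyte score r was 0.25 (rho = 0.12) and for the T and NK cell score 0.21 (rho = 0.08). For the endothelial and mural cell scores r was 0.14 and -0.06. A further model held 7 marker scores, those of all these cell types except microglia. With these scores 2 subunits were lower under light-feeding (Ndufs5 and Ndufs8), none under dark-feeding and 2 under ad libitum feeding (Ndufa11 and Ndufa12). Over all genes 4.92%, 0.313% and 1.21% changed. The median log2 fold change of the subunits in that model was -0.09, -0.12 and -0.12 under light-feeding, dark-feeding and ad libitum feeding. Without the scores these medians were -0.27, -0.31 and -0.12. Ndufs1 under light-feeding was at 0.22 (SE 0.07, adjusted p = 0.0512) with the scores in the model.

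The ad libitum count varied with the time left out, against 11 lower with all times. It was 5 without ZT14 and 3 without ZT18, where the share of all genes changed was 9.94% and 6.16%, against 20.1%. It was 9 without ZT2, 13 without ZT6, 15 without ZT10 and 14 without ZT22, with 18.2% to 21.1% of all genes changed. The median log2 fold change of the subunits was -0.08 without ZT14 and -0.09 without ZT18, against -0.12 with all times. Each time left out also leaves fewer libraries in the test. With libraries of successive title numbers in the same group and time summed into 79 runs, 26 subunits were lower and 1 higher under light-feeding, 24 were lower under dark-feeding and none changed under ad libitum feeding, against 34.2%, 20.8% and 0% of all genes changed.

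Feeding schedule changed few subunits, more of them on HFD than on chow, a difference tested gene by gene with the interaction term below. On HFD, dark-feeding against ad libitum lowered 7 of 35 subunits and raised none, with 4.7% of all genes changed. Alongside, 8 of 14 astrocyte, 3 of 15 neuron, 1 of 10 endothelial and 3 of 6 mural cell markers were lower, and 3 of 13 T and NK cell markers were higher. With marker scores in the model no subunit and no other gene passed, and the median of the 35 was 0.01, against -0.11 without the scores. The 6 with the smallest adjusted p were Ndufs4, Ndufa4, Ndufb6, Ndufb9, Ndufs5 and Ndufb2, with falls of 0.20 (SE 0.04), 0.20 (SE 0.05), 0.24 (SE 0.06), 0.25 (SE 0.06), 0.25 (SE 0.07) and 0.25 (SE 0.07). Ndufs4 stood at 15.6, 18.5 and 24.4 CPM in HFD dark-feeding, against 16.4, 20.6 and 31.8 CPM in HFD ad libitum, and its mean was lower at 6 of 6 times. Light-feeding against ad libitum on HFD lowered 4 subunits and raised 1, with 10.7% of all genes changed. There 6 astrocyte, 3 endothelial and 6 mural cell markers were lower, 2 neuron markers were lower and 2 higher, and 2 T and NK cell markers were higher. With marker scores none of the 35 and 0.695% of all genes passed. Ndufa1, Ndufb2, Ndufs4 and Ndufs5 fell by 0.36 (SE 0.09), 0.30 (SE 0.08), 0.13 (SE 0.04) and 0.21 (SE 0.07), and Ndufs1 rose by 0.15 (SE 0.04, adjusted p = 0.0196). Ndufs1 had a higher mean in light-feeding at 6 of 6 times, and without ZT2 its rise was 0.09 and did not pass. Of the 34 HFD ad libitum libraries 28 carry title numbers below 47, the lowest number of any restricted HFD library, and with a smooth curve over title number in the model 6 subunits were lower with dark-feeding (5.2% of all genes changed), none changed with light-feeding (0%) and Ndufs1 was at -0.05. For dark-feeding the count was 2 without ZT14 (1.51% of all genes) and 3 without ZT2, ZT6 or ZT22 (2.16% to 3.21%), and for light-feeding it ran from 1 without ZT22 (2.86%) to 9 without ZT18 (13.2%). Light-feeding against dark-feeding on HFD changed none by edgeR's test, with 0.0834% of all genes changed, 6 subunits at an unadjusted p under 0.05 and none by DESeq2. Ndufc2 was at 0.14 (SE 0.04, adjusted p = 0.145) and Ndufa9 at 0.08 (SE 0.03, adjusted p = 0.226) there.

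On chow, dark-feeding against ad libitum changed none of the 35 by edgeR's test, as it did none of the 14393 genes (0%), with 7 subunits at an unadjusted p under 0.05 and none by DESeq2. Ndufs5 was at 0.22 (SE 0.08, adjusted p = 0.377) and Ndufv1 at 0.06 (SE 0.03, adjusted p = 0.378). Light-feeding against ad libitum raised 1 subunit, with 1.6% of all genes changed. This was Ndufv3, a subunit of the flavoprotein part, with 13.6, 17.2 and 21.1 CPM in chow light-feeding, against 12.0, 15.4 and 20.8 CPM in chow ad libitum, and a rise of 0.18 (SE 0.05, adjusted p = 0.0436). The count was 12 without ZT14 (10.1% of all genes) and 6 without ZT18 (8.13%), and 0 without any of ZT2, ZT6, ZT10 or ZT22, where 0 or 1 gene of all 14393 passed. In the comparison with all times 3 astrocyte markers and 1 neuron marker were higher, and with marker scores in the model no subunit and no other gene passed. Light-feeding against dark-feeding changed none by edgeR's test (0% of all genes), with 0 subunits at an unadjusted p under 0.05 and none by DESeq2. Ndufv1 was at -0.04 (SE 0.02) and Ndufb4 at 0.13 (SE 0.09), both with an adjusted p of 1.0.

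The diet difference itself was compared between schedules by an interaction term. Both interaction tests share the ad libitum groups. Under light-feeding it was lower than under ad libitum feeding for 8 subunits and higher for 1, with 9.81% of all genes changed. Ndufs5, Ndufb2, Ndufb4, Ndufs8 and Ndufv3 had interaction terms of -0.46 (SE 0.12), -0.40 (SE 0.11), -0.36 (SE 0.11), -0.28 (SE 0.07) and -0.21 (SE 0.07), and Ndufs1 had 0.28 (SE 0.07). Under dark-feeding it was lower for 2 subunits, with 0.792% of all genes changed, namely Ndufs5 at -0.46 (SE 0.12, adjusted p = 0.0378) and Ndufa4 at -0.30 (SE 0.08, adjusted p = 0.0452). The light-feeding count ran from 0 without ZT2 (0.924% of all genes) to 17 without ZT14 (14.9%), and the dark-feeding count from 0 without ZT2, ZT6, ZT14 or ZT22 (0% to 0.917%) to 9 without ZT18 (6.61%). Along with the light-feeding terms, 12 of 14 astrocyte, 5 of 10 endothelial and 5 of 6 mural cell markers had a lower term, 5 of 15 neuron markers a lower and 1 a higher one, and 2 of 13 T and NK cell markers a higher one. In the dark-feeding test 2 neuron and 2 mural cell markers had a lower term. With marker scores in the model none of the 35 and none of the 14393 genes passed either interaction test, and the median term of the subunits was 0.02 under light-feeding and -0.01 under dark-feeding, against -0.16 and -0.17 without the scores.

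Over the day few subunits passed a test of a 24 h rhythm. A cosine curve passed for 4 subunits in HFD dark-feeding (27.5% of all genes), 3 in HFD ad libitum (19.6%), 2 in chow light-feeding (20.3%) and 3 in chow dark-feeding (22.9%). It passed for none in HFD light-feeding (0.841% of all genes) and none in chow ad libitum (4.56%) by edgeR's test, with 8 and 2 at an unadjusted p under 0.05 and none by DESeq2 in either.

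In HFD dark-feeding, Ndufa8 had a fitted peak-to-trough difference of 0.46 on the log2 scale with a peak at ZT19.8 (adjusted p = 0.000326), and its means ran from 14.7 ± 1.68 CPM at ZT10 to 19.9 ± 1.67 CPM at ZT18 (SD). Ndufs1, Ndufb10 and Ndufs4 followed with 0.42, 0.39 and 0.21 and fitted peaks at ZT18.5, ZT19.0 and ZT20.2. In HFD ad libitum the 3 genes peaked in the light phase. Ndufa2 had a peak-to-trough difference of 0.85 with a peak at ZT6.3, and means of 6.18 ± 2.5 CPM at ZT6 and 3.05 ± 0.573 CPM at ZT18 (SD). Ndufb8 and Ndufs5 had 0.30 and 0.47, with peaks at ZT5.8 and ZT5.59. The HFD ad libitum library with an outlying length slope was 1 of those at ZT6, and without the 9 such libraries 1 subunit passed in that group. In chow light-feeding Ndufa2 and Ndufa11 had 0.67 and 0.35, with peaks at ZT2.04 and ZT2.08, the time of 2 outlying libraries, and without the 9 libraries 6 subunits passed. The shares of all genes passing without the 9 libraries are not given for HFD ad libitum and chow light-feeding. Their counts therefore have no background to be set against.

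In chow dark-feeding Ndufb7, Ndufb10 and Ndufv1 passed, with 0.60, 0.60 and 0.19 and peaks at ZT14.1, ZT15.2 and ZT20.2. The summed level in that group averaged 1069 ± 193 CPM at ZT14, from 820 to 1270 CPM, and between 759 and 839 CPM at the other 5 times. With time as a factor in place of the cosine 29 of 35 subunits changed over time in this group, against 35.2% of all genes. Of its libraries at ZT14, 3 have outlying length slopes, and with all 9 such libraries left out the cosine passed for 1 subunit and 20.6% of all genes. The summed level of chow ad libitum was also highest at ZT14, at 920 ± 155 CPM, against 735 ± 25.1 CPM at ZT10. At ZT14 Ndufs5 stood at 5.4 ± 0.955 CPM in HFD dark-feeding and 17.0 ± 5.87 CPM in chow dark-feeding (SD), whose means at the other 5 times lay between 8.08 and 10.1 CPM. Erythrocyte markers summed to 1391, 3768 and 6733 CPM in the 3 outlying ZT14 libraries of chow dark-feeding, against a group median of 497 CPM. Their part in the result was not tested by itself. With the marker scores in the model, that of erythrocytes among them, the cosine passed for 1 subunit in this group. The share of all genes in that model is not given.

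The rhythm differed between the diets for 5 subunits under light-feeding, with 9.18% of all genes changed. These were Ndufb3, Ndufb7, Ndufs3, Ndufa12 and Ndufa6, for which the fitted HFD curve minus the fitted chow curve spanned 0.82, 0.70, 0.37, 0.66 and 0.68 from its highest to its lowest point on the log2 scale. The curves of Ndufb3 had peak-to-trough values of 0.40 with a peak at ZT16.3 in HFD light-feeding and 0.42 with a peak at ZT3.5 in chow light-feeding, and neither passed the test of rhythm by itself. Ndufb3 had means of 5.5 ± 1.28 CPM at ZT2 and 7.19 ± 1.15 CPM at ZT14 in HFD light-feeding, against 8.87 ± 1.65 CPM at ZT2 and 7.18 ± 1.93 CPM at ZT14 in chow light-feeding (SD). With length offsets none of the 35 passed this test (6.27% of all genes), and without the 9 outlying libraries 8 did (10.1%). With marker scores none passed (0.0625%). Under dark-feeding and ad libitum feeding none passed by edgeR's test (0% of all genes in each), with 6 and 9 at an unadjusted p under 0.05 and none by DESeq2. With time as a factor 18 of 35 passed under dark-feeding, against 11.4% of all genes, and none under ad libitum feeding (0%).

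**Figure D5:**
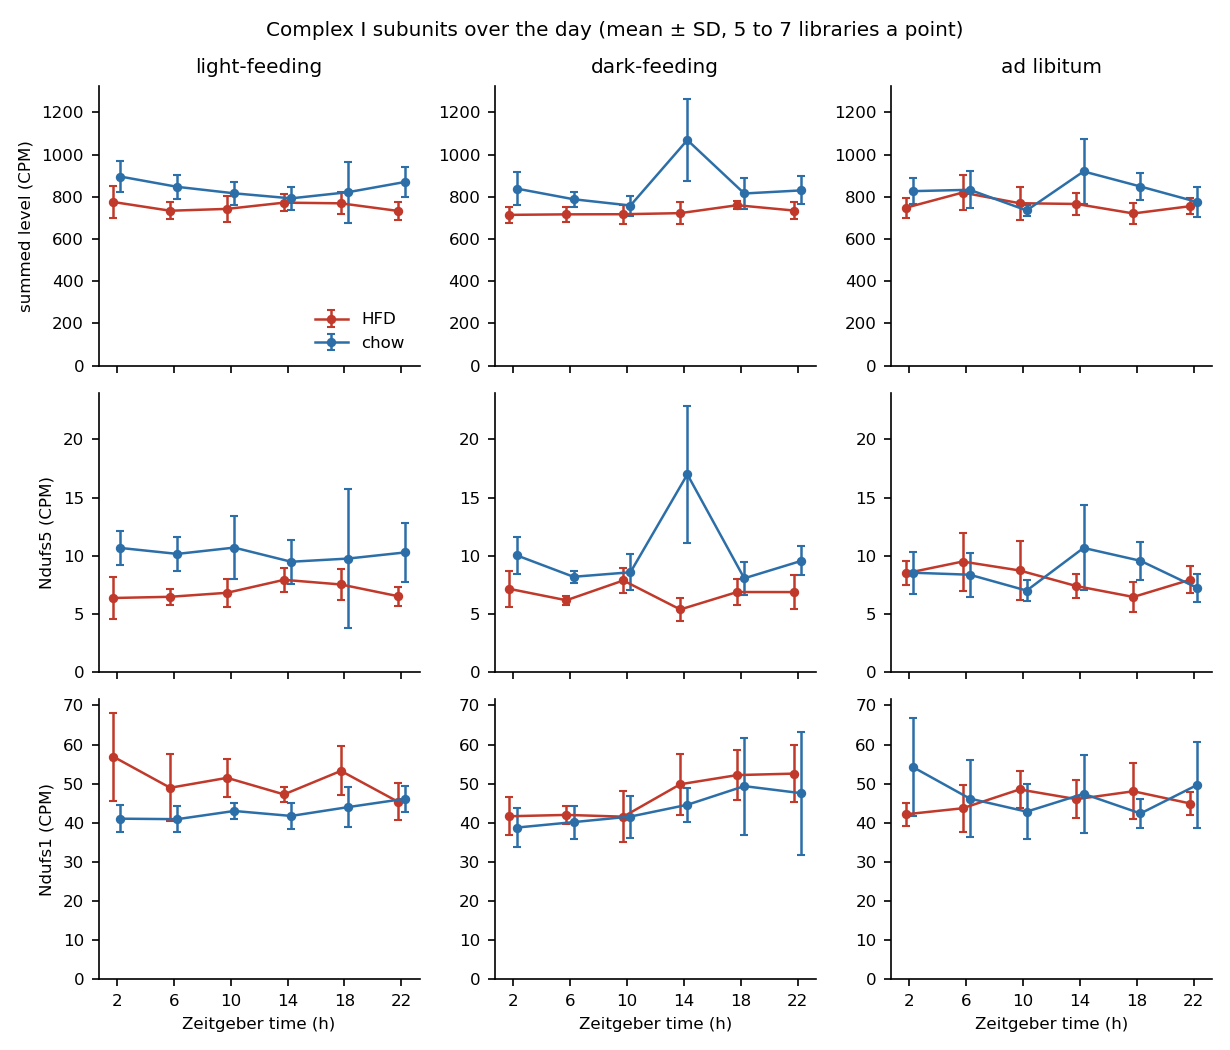
Mean ± SD over the day of the summed CPM of the 35 subunits (top), of Ndufs5 (middle) and of Ndufs1 (bottom), for HFD (red) and chow (blue) under each schedule, 5 to 7 libraries a point. The chow dark-feeding sum stands at 1069 CPM at ZT14, and Ndufs1 is higher on HFD than on chow at 5 of 6 times under light-feeding.

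The subunits varied together between libraries. After removal of group and time means the 595 pairs among the 35 had a median r of 0.38, from -0.13 to 0.70, and 584 pairs were above 0. All pairs share the same 200 libraries and their length slopes. Ndufb8, Ndufa4 and Ndufb9 were most like the mean of the other subunits, with r = 0.82, 0.78 and 0.77, and Ndufa4l2, Ndufv3 and Ndufs1 least, with r = 0.10, 0.33 and 0.36. Among the other tested genes the 10 most like the subunits' mean over the 200 libraries were Cox4i1 (r = 0.87), Aldoa, Eno1, Gapdh, Rab3a, Ldhb, Atp5a1, Pvalb, Atp5b and Cox8a (r = 0.82). These include subunits of cytochrome c oxidase and ATP synthase, enzymes of glycolysis and the neuronal genes Rab3a and Pvalb.

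Subunits of the other respiratory complexes moved alongside. Over all genes 25.1% were lower and 25.2% higher on HFD under light-feeding, and 23.1% and 22.8% under dark-feeding. Under ad libitum feeding 10.1% were lower and 9.96% higher, and the median over all genes was -0.01 under each schedule. Of 37 nuclear subunits of complexes II to V with cytochrome c, 29 were lower and 1 higher on HFD under light-feeding, 34 lower and 1 higher under dark-feeding and 7 lower under ad libitum feeding, with median log2 fold changes of -0.25, -0.28 and -0.09. Sdhb, the iron-sulphur subunit of complex II, fell by 0.24 (SE 0.03) under light-feeding, Cox6a1 of cytochrome c oxidase by 0.43 (SE 0.05) under dark-feeding and Uqcrc1 of complex III by 0.19 (SE 0.04) under ad libitum feeding. Of 17 assembly factors of complex I, 2 were lower and 2 higher under light-feeding, 5 lower under dark-feeding and 1 lower under ad libitum feeding, with medians of -0.03, -0.03 and -0.05. Of all genes 50.3%, 45.9% and 20.1% changed in either direction under these schedules. Ndufaf3 fell by 0.16 (SE 0.04) and 0.18 (SE 0.05) under the restricted schedules and Ecsit by 0.14 (SE 0.04) under ad libitum feeding. Of 12 regulators of mitochondrial gene transcription, 3 were lower and 3 higher under light-feeding, 2 and 2 under dark-feeding, and 2 lower and 1 higher under ad libitum feeding. Gabpa, a subunit of the factor that binds the GABPA motif, rose by 0.21 (SE 0.04), 0.20 (SE 0.05) and 0.14 (SE 0.04) under light-feeding, dark-feeding and ad libitum feeding. Esrra, an orphan receptor active on respiratory genes, fell by 0.21 (SE 0.04) under dark-feeding and 0.16 (SE 0.04) under ad libitum feeding, and Polrmt, the mitochondrial RNA polymerase, by 0.20 (SE 0.04) under light-feeding.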

How the data were processed

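RNA-seq of 200 libraries labelled microglia was analysed from 2 deposited tables. The expected counts per gene were deposited by the authors, and 8.03% of the entries were not whole numbers, so they were rounded; raw whole counts had been foreseen in the design. The FPKM values per gene, for 17611 genes, were also deposited by the authors. Per the labels' protocols, RNA was enriched for poly-A and made into strand-specific libraries. Per the submitters' processing notes the genome build is Rnor_6.0. The sources used here name no aligner or counter. Among the 19900 pairs of libraries 0 were identical, and the lowest chi-square per degree of freedom was 2.26.

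Genes were filtered and scaled by TMM, and CPM in the text are TMM-scaled. Differences were tested with edgeR 4.0.16 (R 4.3.3) by the quasi-likelihood test with Benjamini-Hochberg adjustment over 14393 genes, on the groups of each comparison with time as a factor, or with a cosine of 24 h period for rhythms. The steps were tested on simulated data. Alternatives were DESeq2 1.42.0, its size factors in edgeR, no filter, limma 3.58.1 on log2(FPKM + 0.5) or log2(FPKM + 0.1), each library's length curve as an offset, marker scores as covariates, a curve over title number, 79 runs of successive title numbers as the unit, and each time left out. Tables were summarised with Python 3.11.15.

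Named with values were the core subunits (1 of them is counted but not reported here), the 6 largest diet differences that passed and those above 0 in each diet comparison, up to 6 with the smallest adjusted p in other tests (the 2 with the smallest p where none passed), and the 10 genes most alike. The subunits and gene lists were chosen with earlier results of these data known. Precision is limited by the total counts per library, given with the results.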

Additional observations from a re-analysis of the deposited data

Results flagged for a closer look

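In 3 of the 36 combinations of group and time, 1 library stood apart from the others in the summed level of the 35 subunits; chance flags about 1 in 20 such groups. These were an HFD ad libitum library at ZT14 with 864 CPM, the next of 6 being at 765 CPM, a chow light-feeding library at ZT6 with 947 CPM, the next of 5 at 838 CPM, and a chow light-feeding library at ZT22 with 1007 CPM, the next of 6 at 891 CPM.

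The diet difference itself differed between schedules in 11 tests with an interaction term. Between light-feeding and ad libitum feeding the term was -0.46 for Ndufs5, -0.40 for Ndufb2, -0.36 for Ndufb4, -0.33 for Ndufb7, -0.28 for Ndufs8, -0.23 for Ndufa4, -0.22 for Ndufs4, -0.21 for Ndufv3 and 0.28 for Ndufs1. Between dark-feeding and ad libitum feeding it was -0.46 for Ndufs5 and -0.30 for Ndufa4. Of all genes 9.81% changed in the light-feeding test and 0.792% in the dark-feeding test. With marker scores in the model or with runs as the unit, 0 subunits and 0% of all genes passed either test.

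The fitted daily curve differed between HFD and chow under light-feeding for 5 subunits. The peak-to-trough of the difference was 0.82 for Ndufb3, 0.70 for Ndufb7, 0.68 for Ndufa6, 0.66 for Ndufa12 and 0.37 for Ndufs3, on the log2 scale. Of all genes 9.18% changed in this test. With length offsets or with marker scores 0 subunits passed it, and the matching shares of all genes are given above.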

How the results depend on the processing

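Of 978 values of named subunits under an alternative, 771 kept their direction and side of the threshold, 184 kept the direction but no longer passed, 8 newly passed and 15 changed sign; DESeq2 and its size factors changed no call or direction among the named differences between groups, while the number of subunits with a rhythm differed by at most 1 between DESeq2 and edgeR. No paired analysis was possible because title numbers run in separate series for each diet and number single libraries. Leaving out the 9 libraries of outlying length slope was chosen after seeing the data. The cause of these shifts was not tested.

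The sign changed for Ndufs1 under HFD against chow ad libitum with runs as the unit (0.10) and without ZT2 (0.018), for Ndufb2 there on FPKM (-0.030 and -0.029 with pseudocounts of 0.1 and 0.5), without ZT6 (-0.029), ZT10 (-0.00074) and ZT22 (-0.049), and for Ndufc2 there on FPKM (-0.018 with either pseudocount) and without ZT10 (-0.036). It changed for Ndufs1 under dark-feeding with marker scores (-0.089) and for Ndufs7 under light-feeding with length offsets (0.0075). For dark-feeding against ad libitum on HFD it changed with marker scores for Ndufs5 (0.065) and Ndufb2 (0.048), and for light-feeding against ad libitum on HFD with the title curve for Ndufs1 (-0.050).

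Counts of subunits called moved as follows, and those without a share over all genes here or above have no background given. With marker scores they were 2, 0 and 2 for diet under light-feeding, dark-feeding and ad libitum, 0 for each schedule comparison and interaction that had calls, 0 and 1 for rhythm in HFD dark-feeding and HFD ad libitum, 0 and 1 in chow light-feeding and chow dark-feeding, and 0 for the rhythm difference. With length offsets they were 15, 15 and 2 for diet, 1 for rhythm in chow light-feeding and 0 for the rhythm difference. With runs they were 0 for ad libitum diet, schedules, interactions, rhythm differences and rhythms, except 1 in HFD dark-feeding. In the ad libitum diet test, the schedule tests against ad libitum and the interactions, runs left 0% of all genes changed. Those counts of 0 are therefore not particular to the subunits. FPKM at both pseudocounts gave 0 for light-feeding against ad libitum on chow, where 0.417% of all genes passed. On HFD it gave 2 for dark-feeding against ad libitum (3.2% of all genes) and 2 for light-feeding (9.88% and 10.0%). It gave 0 for the dark-feeding interaction (0.55% and 0.508%) and 1 for rhythm in chow ad libitum. Light-feeding against ad libitum gave 0 with the title curve on both diets (0% of all genes in each). On chow it gave 0 without the count filter (0.241% of all genes), which also left 1 rhythm in chow light-feeding. Time as a factor gave 1 in HFD ad libitum, 2 in HFD dark-feeding, 1 in chow ad libitum, 29 in chow dark-feeding, 1 in chow light-feeding, and rhythm differences of 18 under dark-feeding and 1 under light-feeding. Without the 9 libraries light-feeding against ad libitum gave 3 on HFD (12.3% of all genes) and 5 on chow (9.44%). Rhythms were then 1 in HFD ad libitum, 1 in chow dark-feeding and 6 in chow light-feeding, and the light-feeding rhythm difference 8. Leaving out times gave 5 (ZT14), 3 (ZT18), 9 (ZT2), 13 (ZT6), 15 (ZT10) and 14 (ZT22) for ad libitum diet. Light-feeding against ad libitum on chow gave 12 (ZT14), 6 (ZT18) and 0 (the others), and on HFD 2 (ZT2, ZT6), 9 (ZT18) and 1 (ZT22). Dark-feeding against ad libitum on HFD gave 3 (ZT2, ZT6, ZT22) and 2 (ZT14), and light-feeding against dark-feeding 1 (ZT22). The dark-feeding interaction gave 0 (ZT2, ZT6, ZT14, ZT22), 4 (ZT10) and 9 (ZT18), and the light-feeding one 0 (ZT2), 1 (ZT6, ZT22), 3 (ZT10), 17 (ZT14) and 16 (ZT18).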

Other observations

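Nuclear subunits of complexes II to V also differed between schedules on HFD. Dark-feeding against ad libitum lowered 9 of 37 and raised none, with 4.7% of all genes changed. Among the 9 was Atp5g1, a subunit of the ATP synthase ring, which fell by 0.20 (SE 0.04, edgeR adjusted p = 0.00508). Light-feeding against ad libitum lowered 5 and raised 1, with 10.7% of all genes changed. The 1 raised was Uqcrc1, a core subunit of complex III, by 0.15 (SE 0.03, edgeR adjusted p = 0.00327). The diet difference was lower under light-feeding than ad libitum for 5 of 37, with 9.81% of all genes changed. Under dark-feeding it was lower than ad libitum for 3, with 0.792% of all genes changed. These 3 include Cox8a of cytochrome c oxidase at -0.37 (SE 0.09).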
